A study of Mus musculus with 6 samples.

Results

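Genes of the TGF-beta, BMP, activin and Wnt signalling pathways were followed in mouse beta-cells that had been cultured with or without the other endocrine cells of the islet. The genes were chosen by name from the table of all genes: symbols that start with Bmp, Inh, Acvr, Tgfb, Smad or Fzd, symbols that start with Wnt and a digit, and Lrp5, Lrp6, Axin1, Axin2, Ctnnb1, Tcf7l2, Id1, Id2 and Id3. This gave 39 genes of 13535. They comprised 3 ligand genes, 19 receptors or co-receptors, 5 Smads, 2 intracellular effectors of Wnt signalling, 4 inhibitors, 3 target genes and 3 genes with another role. Beta-cells came from wild-type (WT) C57BL/6JRj male mice of 12 weeks. Endocrine cells of the islet were left to reaggregate for 5 days into pseudo-islets, which hold alpha-, beta- and delta-cells, or pseudo-beta, which hold beta-cells alone. After culture, beta-cells were sorted by surface antigens (CD24, CD49f, CD71 and CD81, with cells positive for CD45, TER119 or CD31 set aside), and RNA was sequenced from 3 samples of each kind, in experiments numbered 35, 36 and 37 with 1 sample of each kind. The labels name no transgene or added hormone in either group, and the groups differed in the cells that shared the cluster.

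TGF-beta family ligands, which include the TGF-betas, activins and BMPs, bind a complex of type I and type II receptor kinases. The type I receptor then phosphorylates a receptor-regulated Smad, which joins Smad4 and enters the nucleus. Smad1, Smad5 and Smad9 carry signals of BMP receptors and Smad2 those of activin and TGF-beta receptors, while Smad7 blocks the receptors. The Id genes, whose products hold basic helix-loop-helix factors away from DNA, are classical direct targets of BMP signalling. Wnt proteins bind Frizzled receptors and the co-receptors Lrp5 and Lrp6. In the canonical branch this stops the destruction of beta-catenin, the product of Ctnnb1, by a complex built on Axin, and beta-catenin then acts with TCF factors such as Tcf7l2. In islets these pathways are known for roles in beta-cell maturation, insulin secretion and proliferation, and common variants near human TCF7L2 are associated with type 2 diabetes.

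Promoter windows of 250 bases before the start that RefSeq annotates were taken, on GRCm38.p6, for 27 of the 39 genes, with 38 windows in all. They were searched on both strands for the GC-rich Smad element GGCGCC, which is a palindrome, the cAMP response element TGACGTCA, also a palindrome, and the TCF/LEF element CTTTGAT. None of these motifs contains another. GGCGCC was found in 12 of the 38 windows (31.6%) and in 9.59% of all 32851 windows. The windows of these genes had a median GC content of 68.4%, against 52.4% for all windows, and the part of this difference in the share with GGCGCC was not tested. TGACGTCA was in none of the 38 windows and in 1.55% of all windows, and CTTTGAT was in 1 (Wnt5b) and in 3.21% of all. The sequences below belong to an Id gene, a TCF gene and a Smad gene whose levels are given in detail further on, and the capitals mark GGCGCC. Bases inside annotated exons were left out, which shortened the Id2 window to 89 bases. For Id2 the GENCODE M21 gene starts farther upstream than RefSeq's, and the stretch shown lies in an intron of that longer transcript.
Id2, chr12:25096254-25096342, minus strand: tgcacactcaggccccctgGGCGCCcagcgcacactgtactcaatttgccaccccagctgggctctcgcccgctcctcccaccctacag
Tcf7l2, chr19:55741560-55741809, plus strand: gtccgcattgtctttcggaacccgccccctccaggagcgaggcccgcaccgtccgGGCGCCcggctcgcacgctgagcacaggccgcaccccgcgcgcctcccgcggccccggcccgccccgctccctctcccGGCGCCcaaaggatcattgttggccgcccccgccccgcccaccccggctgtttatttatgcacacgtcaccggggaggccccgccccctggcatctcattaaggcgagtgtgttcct
Smad9, chr3:54755332-54755581, plus strand: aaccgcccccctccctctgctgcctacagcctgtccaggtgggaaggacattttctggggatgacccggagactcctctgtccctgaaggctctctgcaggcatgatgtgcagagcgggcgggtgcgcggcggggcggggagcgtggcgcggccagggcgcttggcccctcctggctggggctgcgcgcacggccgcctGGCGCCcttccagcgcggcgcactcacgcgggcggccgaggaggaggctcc
Tcf7l2 held 2 copies of the element in this stretch, and Id2 and Smad9 held 1 each. A match is a stretch of letters, and no binding was measured in these samples.

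The values were the authors' normalized counts, which summed to between 17994346 and 19635287 per library, and the 10 most abundant genes took 40.89% to 45.06% of them. The 39 genes together took 0.0705% to 0.0976%. These values do not give the reads behind a library. All 10 beta-cell markers on the list were in the table, and none was called between the groups by limma in either fit described below. Some had an unadjusted p under 0.05 in limma with the block. Of these, G6pc2, Iapp, Ins1 and Ucn3 were higher in pseudo-islets, by log2 fold changes of 0.23, 0.22, 0.17 and 0.16. Slc30a8 (-0.31) and Slc2a2 (-0.16) were lower, and Ins2, Mafa, Nkx6-1 and Pdx1 did not pass this cut. The groups did not overlap for G6pc2 and Ucn3. Other endocrine cells left more transcript in the libraries from pseudo-islets: Gcg, which encodes glucagon, lay between 941 and 2094 normalized counts there and between 0 and 36.1 in pseudo-beta, and Sst, which encodes somatostatin, between 146 and 210 and between 0 and 4.74. The 6 alpha-cell markers in the table, of 12 listed, summed to 7662 to 11621 in pseudo-islets, against 5099 to 6302 in pseudo-beta. For the 3 of 8 delta-cell markers in the table the sums were 391 to 593 and 263 to 316, and for the 2 of 4 PP-cell markers 658 to 5500 and 328 to 2482. These 2, Ppy and Pyy, were higher in pseudo-islets in each experiment. Their adjusted p by limma was 0.0027 and 0.026 with the block, and neither was called without it. Of the alpha-cell markers limma called 1 without and 2 with the block, and of the delta-cell markers 1 in either fit. The only endothelial marker of 8 in the table, Esam, lay between 41.4 and 89.5 in all 6 libraries, and the only immune marker of 8, Cd68, between 3.74 and 18.6. The 6 acinar and 8 stromal markers listed have no row in the table and were not analysed here. The part of other cells' RNA in the values that follow was not tested, and in sorted bulk samples fewer cells of a type cannot be told apart from less RNA per cell.

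Libraries of sorted beta-cells from either kind of cluster held transcripts of genes in every role group, from ligand to target. Some of these were low, and some components of the pathways have no row in the table. Levels were compared between genes as normalized counts per kb of exon. The BMP target Id3 was the highest of the 39 (mean of 1558 per kb over the 6 libraries), above 96.9% of all genes. Its relative Id2 followed at 964 per kb, and the ligand Wnt4, which signals mainly outside the beta-catenin branch, at 497 per kb. Ctnnb1 came next, at 307 per kb. Among the receptors the highest were Tgfbr1, the type I receptor of TGF-beta, at 109 per kb, Bmpr1a, a type I receptor of BMPs, at 103 per kb, and Acvr2a, a type II receptor that activins and BMPs share, at 94.0 per kb. The SD over the 6 libraries was 16.8 per kb for Tgfbr1, 25.4 for Bmpr1a and 22.3 for Acvr2a, so the order of these 3 neighbours was within their spread. At the low end stood Fzd1, at 1.67 per kb, and Fzd5, at 2.69 per kb. The ligand gene Inhba, at 3.90 per kb, and Axin2, a target of canonical Wnt signalling, at 3.86 per kb, were also low. Fzd1 was listed at 0 in pseudo-islets 35 and pseudo-beta 36. The ligand genes of the families other than Wnt4, Wnt5b, Inha and Inhba, the follistatin gene Fst and the TGF-beta type II receptor Tgfbr2 have no row in the table and were not analysed here.

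**Figure D1:**
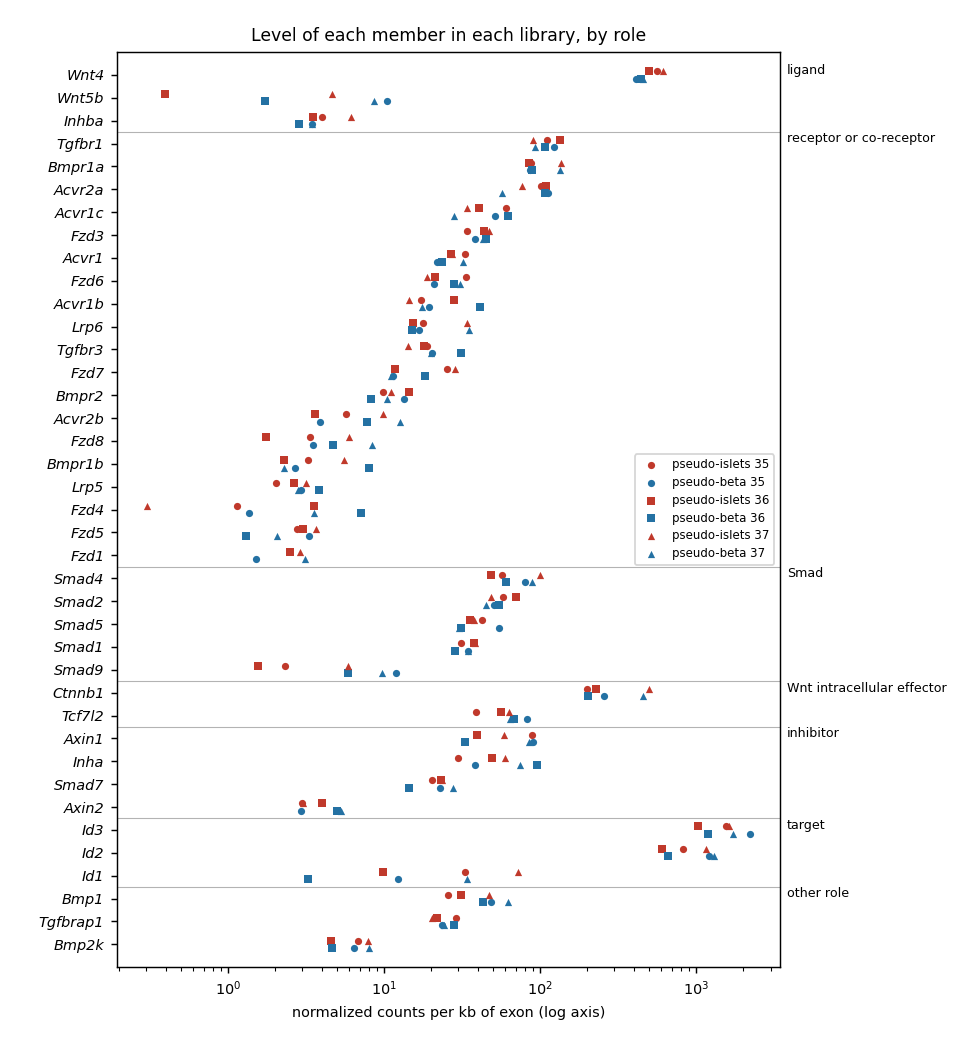
Level of each of the 39 genes in each of the 6 libraries, in normalized counts per kb of exon on a log axis, with genes grouped by role. Red marks are pseudo-islets and blue marks pseudo-beta, and circles, squares and triangles are experiments 35, 36 and 37. Values of 0 (Wnt5b in pseudo-islets 35, and Fzd1 in pseudo-islets 35 and pseudo-beta 36) cannot be drawn on this axis. Id3, Id2 and Wnt4 stand at the right in every library, and red and blue marks overlap for most genes.

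The first comparison asked which of these genes differed between beta-cells of pseudo-islets and of pseudo-beta. No member of the pathways passed the test. Differences are given as log2 fold changes of pseudo-islets over pseudo-beta, on the log2(normalized count + 1) scale, with the SE from limma, and a gene was called at a Benjamini-Hochberg adjusted p under 0.05 over all 13535 genes. Of the 39 genes, 0 were called by limma, where 8 of all genes (0.0591%) were called. With the experiment number as a replicate block, again 0 of 39 were called, where 73 of all genes (0.539%) were. At an unadjusted p under 0.05, limma counted 3 of 39 (7.69%, against 5.40% of all genes) without the block and 8 of 39 (20.5%, against 11.9%) with it. The lowest adjusted p among the 39 was 0.862 without the block and 0.200 with it, both far from the threshold. The median log2 fold change of the 39 genes was -0.04, and that of all genes 0.01.

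These tests left room for moderate differences. The median SE of a log2 fold change was 0.32 for the 39 genes and 0.27 for all genes. The 95% confidence interval lay wholly within a 1.5-fold change for 3 of the 39 genes (7.69%, against 27.3% of all genes). With the block it did so for 14 of 39 (35.9%, against 42.0%), among them Wnt4, Tgfbr1, Bmpr1a, Acvr2a, Smad2, Smad5, Id2, Id3 and Ctnnb1. The 12 genes with a mean under 50 normalized counts had a median SE of 0.57, and the 27 others 0.27. For the low genes, such as the receptors Fzd1 and Fzd4, a change of several fold was not detectable at this precision.

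**Figure D2:**
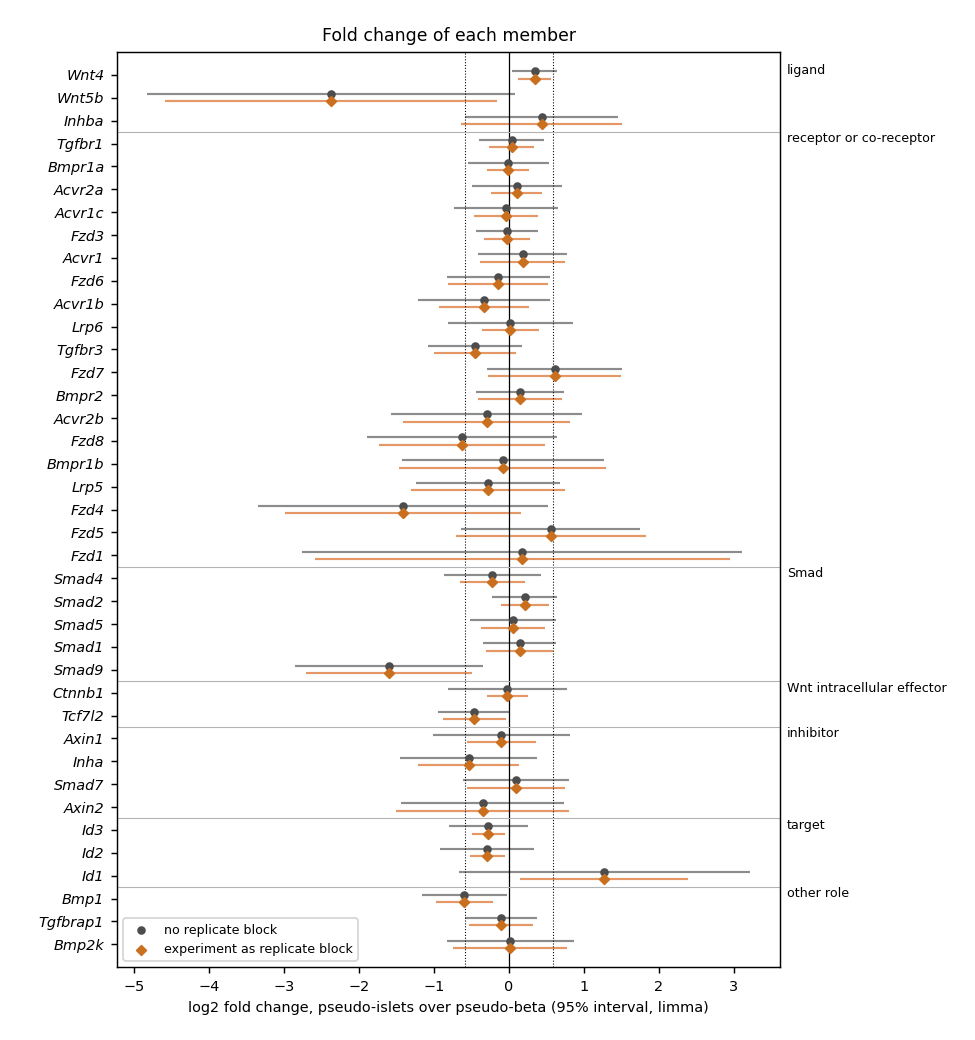
Log2 fold change of pseudo-islets over pseudo-beta for each of the 39 genes, with the 95% confidence interval from limma without (grey) and with (orange) the replicate block. The vertical line marks no difference and the dotted lines a 1.5-fold change. The intervals of the low genes, such as Fzd1 (-2.75 to 3.11 without the block), are the widest, and those of Wnt4, Bmp1 and Smad9 leave out 0 without the block.

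Among the ligand genes, Wnt4 had the smallest unadjusted p of all 39 in the fit with the block. Wnt4 (ENSMUSG00000036856, chr4:137277489-137299726 of GRCm38) counted 2352, 2081 and 2570 in pseudo-islets 35, 36 and 37, against 1720, 1859 and 1917 in pseudo-beta 35, 36 and 37. Every pseudo-islet library was above every pseudo-beta library. The log2 fold change was 0.35 (SE 0.14), with an unadjusted p of 0.029 and an adjusted p of 0.872 by limma. With the block the SE was 0.10, the unadjusted p 0.0050 and the adjusted p 0.200. Inhba, which encodes the subunit of activin A, also did not overlap, at 25.7, 22.2 and 39.5 in pseudo-islets, against 22.0, 18.1 and 22.1 in pseudo-beta. Its highest pseudo-beta value and lowest pseudo-islet value were nearly equal, and the log2 fold change was 0.44 (SE 0.46, unadjusted p = 0.365 by limma). Wnt5b, a ligand best known from the branch without beta-catenin, was low, at 0, 1.05 and 12.4 in pseudo-islets, against 27.7, 4.58 and 22.8 in pseudo-beta. Each pseudo-islet value was below that of the pseudo-beta library of its own experiment, although the groups overlapped. The fitted log2 fold change was -2.37 (SE 1.10, unadjusted p = 0.038 with the block by limma), and with values this low it was -3.67 with a pseudocount of 0.1 and -0.96 with one of 10, and -1.14 with the block without experiment 35.

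None of the 19 receptors and co-receptors had an unadjusted p under 0.05 in either fit. Their log2 fold changes ran from -1.41 (Fzd4) to 0.61 (Fzd7), with a median of -0.02. Tgfbr1 counted 721, 873 and 587 in pseudo-islets, against 799, 702 and 607 in pseudo-beta, for a log2 fold change of 0.039 (95% interval -0.39 to 0.47). The groups overlapped, and the sign turned when the libraries were scaled without their 10 most abundant genes (-0.020). Tgfbr3, or betaglycan, the co-receptor that presents TGF-beta and inhibin, was the only receptor gene whose groups did not overlap, at 123, 119 and 92.9 in pseudo-islets, against 133, 203 and 130 in pseudo-beta. The difference was -0.45 (SE 0.28), with an unadjusted p of 0.139 and an adjusted p of 0.976 by limma. Fzd7, a Wnt receptor, had the largest positive value, but pseudo-islets 36 (53.1) fell among the pseudo-beta values (49.9 to 83.4) while the other pseudo-islet libraries stood at 114 and 129.

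Among the Smads, Smad9, which encodes the least abundant of the 3 BMP-responsive Smads here, had the lowest unadjusted p without the block. Smad9 (ENSMUSG00000027796, chr3:54755582-54801257) counted 12.5, 8.33 and 31.6 in pseudo-islets, against 63.9, 31.7 and 52.3 in pseudo-beta. Pseudo-islets 37 came just under pseudo-beta 36, so the groups were separate by a narrow margin. The log2 fold change was -1.60 (SE 0.56), with an unadjusted p of 0.017 and an adjusted p of 0.862 by limma, and an adjusted p of 0.244 with the block. Smad4, the partner shared by all receptor-regulated Smads, was the highest per kb of the Smads given here. It counted 212, 180 and 368 in pseudo-islets, against 296, 226 and 331 in pseudo-beta. These values overlapped (log2 fold change -0.22, SE 0.29). Smad1, Smad2 and Smad5 had log2 fold changes of 0.15, 0.21 and 0.054. Of the Smads given here, Smad2 was the only one that was higher in pseudo-islets in all 3 experiments.

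Neither of the Wnt effectors passed the test. Ctnnb1 counted 1041, 1185 and 2577 in pseudo-islets, against 1337, 1047 and 2361 in pseudo-beta. The log2 fold change was -0.019, with a 95% interval of -0.81 to 0.78 that narrowed to -0.29 to 0.25 with the block. Ctnnb1 shares 14.62% of its exon bases with Ulk4 on the other strand, and whether reads were counted by strand is not given in the sources used here. The same limit holds for other members, among them Fzd5 (17.83%, with Gm38058), Bmp2k (13.97%, with Paqr3) and Acvr2a (7.84%, with Orc4). Tcf7l2 (ENSMUSG00000024985, chr19:55741820-55933654) counted 342, 492 and 556 in pseudo-islets, against 725, 600 and 562 in pseudo-beta. The groups did not overlap, but the closest pair, 556 and 562, were both of experiment 37, and the widest gap was that of experiment 35. The log2 fold change was -0.46 (SE 0.22, unadjusted p = 0.058 by limma and 0.036 with the block), and it was -0.15 in the fit with the block when experiment 35 was left out. Among the inhibitors, Axin1, the scaffold of the beta-catenin destruction complex, counted 340, 151 and 224 in pseudo-islets, against 343, 126 and 323 in pseudo-beta, which overlapped. Axin2, its homologue and a target of canonical Wnt signalling, lay between 16.2 and 29.0 in all 6 libraries. Smad7 lay between 65.0 and 125 and Inha, which encodes the alpha subunit of inhibin, between 44.3 and 141. The log2 fold changes of the 4 inhibitors ran from -0.54 (Inha) to 0.094 (Smad7).

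None of the 3 Id genes was called, and their differences had different signs. Id3 (ENSMUSG00000007872, chr4:136143497-136145755) counted 2791, 1839 and 2907 in pseudo-islets, against 3961, 2134 and 3107 in pseudo-beta. In each experiment pseudo-islets were below pseudo-beta, by log2 differences of 0.51, 0.21 and 0.10 in size, although the groups overlapped across experiments. The log2 fold change was -0.27 (SE 0.24 without and 0.10 with the block), with an adjusted p of 0.998 without the block and 0.314 with it by limma. Leaving out 1 library moved this log2 fold change between -0.51 and -0.062. Id2 had the same pattern, at 2007, 1485 and 2823 in pseudo-islets, against 2970, 1619 and 3189 in pseudo-beta, for a log2 fold change of -0.29 (adjusted p = 0.319 with the block by limma) that moved between -0.60 and -0.062 when 1 library was left out. Id1 ran the other way at a far lower level, with 38.3, 11.5 and 83.6 in pseudo-islets, against 14.2, 3.77 and 39.4 in pseudo-beta. Its value in pseudo-islets was higher in each experiment, with log2 differences of 1.37, 1.39 and 1.07, and the fit gave 1.27 (SE 0.87 without and 0.51 with the block, adjusted p = 0.359 with the block by limma). Without 1 library this value lay between 0.48 and 2.02.

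Of the genes whose names match the families but whose products act elsewhere, Bmp1 encodes a metalloproteinase that processes procollagens and frees BMPs and TGF-beta from their binding proteins. Bmp1 (ENSMUSG00000022098, chr14:70474558-70520234) counted 228, 278 and 418 in pseudo-islets, against 430, 383 and 551 in pseudo-beta, lower in pseudo-islets in each experiment. Because pseudo-islets 37 exceeded pseudo-beta 36, the groups overlapped. The log2 fold change was -0.59 (SE 0.26), with an unadjusted p of 0.042 without the block and 0.0053 with it, and an adjusted p of 0.202 with the block by limma. Bmp2k, a kinase of endocytosis, and Tgfbrap1, a vesicle-tethering protein that binds TGF-beta receptors, had log2 fold changes of 0.019 and -0.10.

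**Figure D3:**
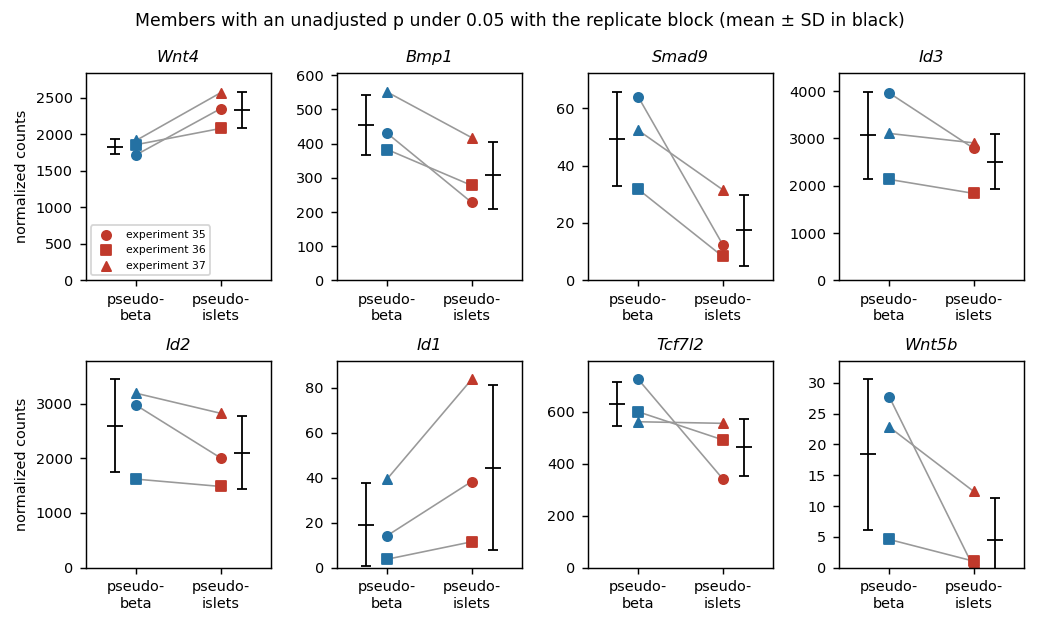
Normalized counts of the 8 genes with an unadjusted p under 0.05 in limma with the replicate block, in pseudo-beta (blue) and pseudo-islets (red). Lines join the libraries of one experiment, and black bars give the mean ± SD of the 3 libraries; the lower bar of Wnt5b in pseudo-islets reaches below 0 and is cut at the axis. Wnt4 and Id1 are higher in pseudo-islets in each experiment and the other 6 are lower.

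Of the genes with the same direction in all 3 experiments, more were lower than higher in pseudo-islets. This was also so among the other genes of the pathways described below. Of the 39 genes, 5 had groups that did not overlap (12.8%, against 10.8% of all genes). Of these Wnt4 and Inhba were higher in pseudo-islets (5.13%, against 5.63% of all genes), and Tgfbr3, Smad9 and Tcf7l2 were lower (7.69%, against 5.13%). Of the 8 genes with an unadjusted p under 0.05 with the block, 2 were higher (5.13%, against 6.69% of all genes) and 6 lower (15.4%, against 5.22%). With 3 libraries against 3 and the pairing ignored, an exact permutation test of one gene cannot give a two-sided p below 0.1. Permuting only within the pairs allows fewer arrangements. The direction was the same in all 3 experiments for 15 of 39 (38.5%, against 33.1% of all genes). In 4 of 39 genes (10.3%, against 18.0% of all genes) pseudo-islets were higher in all 3 experiments, and in 11 (28.2%, against 15.0%) they were lower in all 3. With libraries scaled without their 10 most abundant genes, 3 genes were higher and 13 lower, while 20.5% of all genes were lower. The share of all genes lower in all 3 experiments was 13.9% in the quintile with the shortest summed exons and 18.9% in the quintile with the longest, and 24 of the 39 genes were in the 2 longest quintiles. The part of exon length and of the other cells' RNA in this count was not tested.

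Within families of related genes, which need not bind the same partners, the share of each gene was computed from its level per kb of exon. The 6 type I receptors summed to 304 to 331 per kb in all 6 libraries. Tgfbr1 took 29.2% to 42.3% of that sum and Bmpr1a 26.7% to 44.3%, followed by Acvr1c, or ALK7, a receptor of activin B and GDFs, with 9.17% to 19.4%. Bmpr1a took 44.3% in pseudo-islets 37 and 43.8% in pseudo-beta 37, against 26.7% to 28.2% in the other 4 libraries, so its share moved with the experiment. Among the type II receptors in the table Acvr2a took 71.2% to 87.0%, ahead of Bmpr2 with 6.66% to 13.0% and Acvr2b with 2.83% to 15.8%, whose ranges overlap. Among the Frizzled genes Fzd3 took 34.0% to 50.1%, Fzd6 17.6% to 33.5% and Fzd7 10.8% to 26.6%. Lrp6 made up 79.6% to 92.6% of the sum of Lrp5 and Lrp6. Of the Id genes Id3 took 56.4% to 64.5% and Id1 0.175% to 2.53%. Smad9 took 2.06% to 7.17% of the BMP-responsive Smads in pseudo-islets, against 8.99% to 13.1% in pseudo-beta, while Smad1 took 34.2% to 50.3% and Smad5 40.8% to 56.0% over the 6 libraries. This separation is that of the Smad9 counts above seen as a share. The genes of such families are similar in sequence, and the authors' quantification assigned reads that match several genes by its own model.

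**Figure D4:**
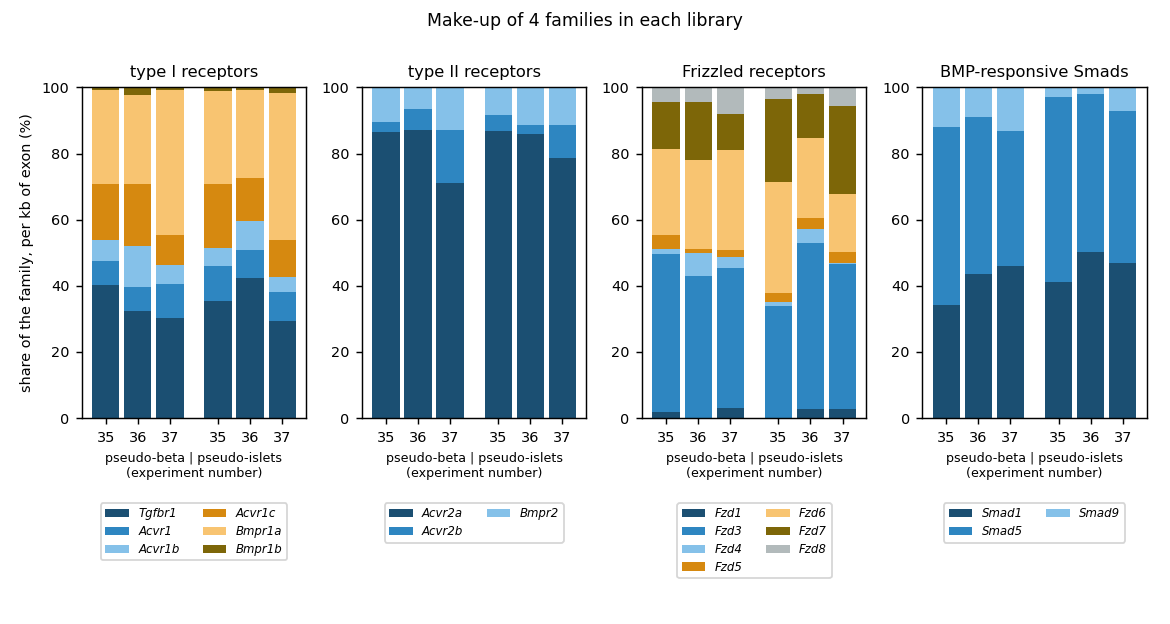
Share of each gene in the summed level per kb of exon of 4 families (type I receptors, type II receptors, Frizzled receptors, BMP-responsive Smads), as stacked bars in percent for each library, pseudo-beta at the left and pseudo-islets at the right of each panel; colours are used anew in each panel. Tgfbr1 with Bmpr1a, Acvr2a, and Fzd3 lead their families in both groups, and the Smad9 segment is taller in the 3 pseudo-beta bars (8.99% to 13.1%) than in the 3 pseudo-islet bars (2.06% to 7.17%).

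The experiments themselves were also compared, a test chosen after seeing the data. By limma's moderated F test on the experiment term, 7 of the 39 were called at an adjusted p under 0.05 (17.9%, against 6.32% of all genes): Ctnnb1, Id2, Id3, Lrp6, Axin1, Bmpr1a and Id1. At an unadjusted p under 0.05 the same test counted 13 of 39 (33.3%, against 23.5%). The median share of a gene's sum of squares between experiments was 50.1% for the 39 genes and 52.1% for all genes. It exceeded the share between groups in 28 of the 39 (71.8%, against 75.7% of all genes). For Ctnnb1 the adjusted p was 0.0033, and both libraries of experiment 37 (2577 and 2361) lay above all 4 of the others (1041 to 1337). Lrp6 counted 466 and 482 in experiment 37 and 205 to 241 in the others (adjusted p = 0.015), and Bmpr1a 865 and 859 against 536 to 564 (adjusted p = 0.041). Id2 and Id3 were lowest in experiment 36, at 1485 and 1619 for Id2 (adjusted p = 0.0058) and 1839 and 2134 for Id3 (adjusted p = 0.011). Axin1 was lowest there too, at 151 and 126 (adjusted p = 0.028). The labels give no more about an experiment than its number.

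**Figure D5:**
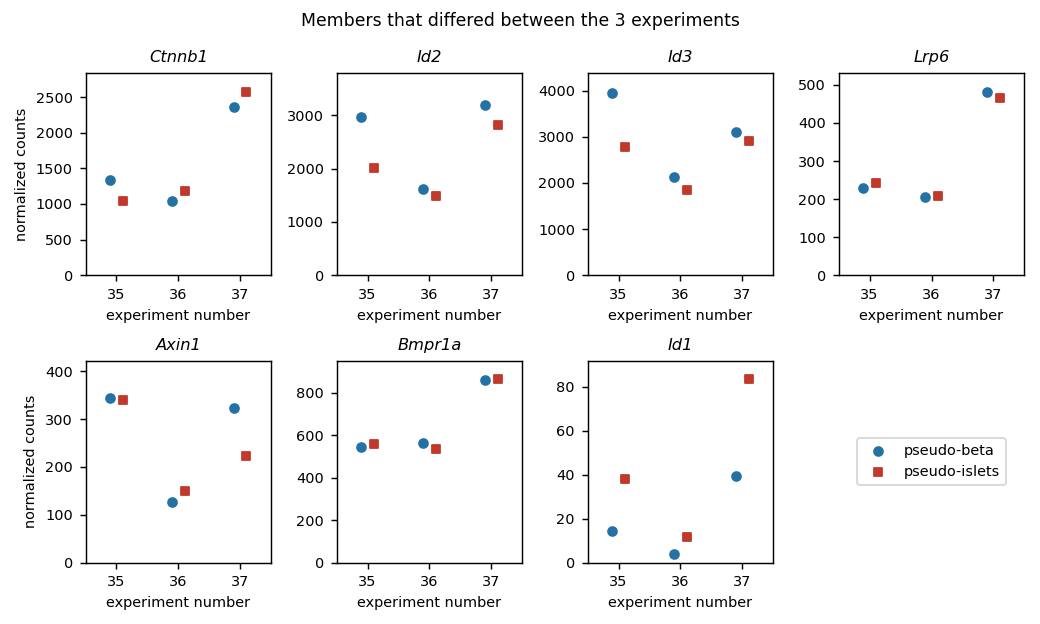
Normalized counts of the 7 genes called between experiments, by experiment number, with pseudo-beta as blue circles and pseudo-islets as red squares. For Ctnnb1, Lrp6 and Bmpr1a both libraries of experiment 37 lie above all 4 others.

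Other genes of the pathways, from a list of 128 that the name rule does not reach, were tested in the same fits: 75 were in the table, and limma called 0 of 75 without the block and 0 of 75 with it. At an unadjusted p under 0.05 it counted 4 of 75 (5.33%, against 5.40% of all genes) without and 10 of 75 (13.3%, against 11.9%) with the block. The 5 with the smallest unadjusted p with the block were Trim33, Ccnd1, Rgmb, Tcf7l1 and Bambi. Trim33, a ubiquitin ligase that acts on Smad4, counted 215, 285 and 221 in pseudo-islets, against 394, 385 and 531 in pseudo-beta, with no overlap. Its log2 fold change was -0.85 (SE 0.22), with an adjusted p of 0.584 without the block and 0.0946 with it by limma; the adjusted p with the block was 0.251, 0.0396 and 0.449 without experiments 35, 36 and 37. Bambi, a decoy receptor of the TGF-beta family, counted 279, 247 and 408 in pseudo-islets, against 485, 443 and 424 in pseudo-beta, also without overlap (log2 fold change -0.56, SE 0.22, adjusted p = 0.275 with the block by limma). Rgmb, a BMP co-receptor, and Tcf7l1, a TCF factor that mostly represses, had log2 fold changes of -0.81 (SE 0.33) and -1.02 (SE 0.51), with overlapping groups. Ccnd1, which encodes cyclin D1 and is a Wnt target in many tissues, counted 3176, 2929 and 2151 in pseudo-islets, against 2276, 2621 and 1604 in pseudo-beta, higher in pseudo-islets in each experiment (log2 fold change 0.35, SE 0.21, adjusted p = 0.173 with the block by limma). Of the 75 genes, 6 were higher in pseudo-islets in all 3 experiments (8%, against 18.0% of all genes) and 27 lower (36%, against 15.0% of all genes), and 50 of the 75 were in the 2 longest quintiles by exon length.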

How the data were processed

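RNA of sorted beta-cells was measured in 3 libraries of pseudo-islets and 3 of pseudo-beta, made from 5 ng of total RNA each, with ribosomal RNA removed and paired reads of 75 bases. The authors mapped reads to GRCm38 with STAR 2.7.6a, quantified genes with RSEM 1.3.1 and normalized them with DESeq2 1.26.0, in R 3.6.3 (versions from the submitters' processing notes). The deposited signal is these normalized counts, in which no whole reads were recovered. The authors' own mean, fold change and p-value columns were not used. The annotation release is not given in the sources used here, and gene lengths and coordinates came from GENCODE M21 (GRCm38), with a length for 13526 of 13535 genes.

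Values were tested on log2(value + 1) with limma 3.58.1 in R 4.3.3, with a trend in the prior variance, without a block and with the experiment number as a replicate block. Benjamini-Hochberg adjustment ran over all genes, with a threshold of 0.05. A filter of 10 normalized counts in at least 3 libraries removed no gene. Deviations from the group means correlated at 0.119, 0.121 and 0.325 between libraries of one experiment and at -0.203 to 0.0922 otherwise, and every same-number value exceeds the minimum of 0.1 set for pairing, so libraries of one experiment were treated as pairs in the blocked fit. The 3 deviations of a group sum to 0, so these correlations are not independent of each other. The value of 0.0922 also lies close to 0.119 and 0.121. Correlations between libraries were 0.941 to 0.962. The tests were tested on simulated data. Nothing in the labels says more about separate animals than the experiment numbers, so p-values cover the spread between these libraries. Values in every library are given for genes with an adjusted p, or with the block an unadjusted p, under 0.05, and for the gene with the highest level per kb in each role group; Inhba, Tgfbr3 and Fzd7 were added after their values were seen. Of the other pathway genes, the 5 with the smallest p with the block are named. The genes and lists were chosen with earlier results of these data known. One Smad gene is not reported here.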

Additional observations from a re-analysis of the deposited data

How the results depend on the processing

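The count of called genes among the 39 stayed at 0 without and with the replicate block, which changed no call on them, and under every other setting run. The count among the 75 other pathway genes was 0 to 1 when libraries or experiments were left out, the 1 being Trim33 with the block and without experiment 36, and 0 otherwise. The count over all genes, 8 without the block, was 73 with the replicate block, 1 with a pseudocount of 0.1, 2 with scaling without the 10 most abundant genes, 2 with quantile normalization and 2 without the trend, 0 to 13 without one library, and 28, 73 and 45 with the block without experiments 35, 36 and 37; the cause was not tested. The log2 fold changes of Axin1 (-0.56 to 0.19), Tgfbr1 (-0.10 to 0.18) and Ctnnb1 (-0.42 to 0.31) took either sign when libraries were left out; with the block they were 0.12 for Axin1 without experiment 37, -0.099 for Tgfbr1 without experiment 36 and 0.15 for Ctnnb1 without experiment 35, and that of Tgfbr1 was -0.020 with scaling without the 10 most abundant genes. The other 11 members recomputed under the alternatives kept their sign in every setting; Fzd7 was not recomputed. No scaling moved the median of all genes by more than 0.06 on the log2 scale. A file of normalized values gives no read depth, so the SE is the only measure of precision.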
